A study of Mus musculus with 14 samples.

Results

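Tumour dendritic cells carrying an Ikbkb deletion were set against every floxed control of the study. Type 1 conventional dendritic cells, or cDC1, had been sorted one by one from YUMM1.7 melanomas, a mouse melanoma line injected under the skin, and each plate held the cells of 1 tumour of 1 female mouse. Of the 14 plates, 9 entered: the 4 of genotype Ikbkb_dXCR1 (133 cells), called deleted here, the 1 of genotype Ikbkb_FF (34 cells) and the 4 of genotype Irf1_FF (165 cells), which gives 332 of 555 cells. No treatment is named for any group. FF stands for floxed alleles, and dXCR1 marks deletion of the gene named before it, here Ikbkb. The sources used here give neither the Cre driver nor the share of cells that had lost the gene nor the strain background. Plate numbers below name mice and do not pair them.

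Most of the controls came from another experiment. The labels put the 4 deleted plates and the Ikbkb_FF plate in experiment M2 and the 4 Irf1_FF plates in experiment M3. Deleted plates 1 and 2 and the Ikbkb_FF plate were from 8-week mice. Deleted plates 3 and 4 and the Irf1_FF plates were from 6-week mice. Genotype and experiment therefore cannot be told apart except through the Ikbkb_FF plate, and its place is given for each gene below. A fit with experiment as a term rests on that plate alone for the contrast: it sets 4 plates against 1 within M2 and assumes that the lone plate varies like the others.

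Ikbkb encodes IKKβ, the kinase of the canonical NF-κB pathway that phosphorylates the inhibitor IκBα. Phosphorylated IκBα is degraded, RELA and REL dimers enter the nucleus, and their targets include the inhibitor's own gene, Nfkbia, as well as chemokine, cytokine and survival genes. cDC1 are the dendritic cells that take up dead tumour cells and present their antigens to CD8+ T cells. Their maturation comes with NF-κB activity, CCR7-dependent migration and costimulatory ligands.

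Per plate there were 18 to 51 cells with 2810321 to 9128936 UMIs (unique molecular identifiers, each meant to mark 1 captured transcript). Under 500 genes were found in 32 cells, and the cDC1 genes Xcr1, Clec9a, Irf8 and Batf3 had UMIs in all 9 plates. Median UMIs per cell were 141030 ± 19937 (SD, n = 4) in deleted and 151170 ± 42646 (n = 5) in control plates, a difference within the spread between plates (exact permutation test, two-sided p = 0.651). Median genes per cell, mitochondrial percent and spike-in percent had exact permutation p of 0.698, 0.778 and 0.841. Fibroblast- or endothelial-like cells were uneven: they made up 34.9% of cells in Irf1_FF plate 1 (exact binomial 95% interval 21.0 to 50.9%), 15.7% in Irf1_FF plate 4 (7.02 to 28.6%) and at most 3.23% in any other plate. These intervals cover counting error only. In plate sums, fewer cells of a type and less RNA per cell cannot be told apart.

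No gene passed the test. UMIs were summed per plate, and 4465 genes found in 10% or more of the 332 cells were tested with edgeR's quasi-likelihood test, with Benjamini-Hochberg adjustment over all of them. At an adjusted p under 0.05 it called 0 genes, 0.0% of those tested, and the smallest adjusted p was 0.987. At an unadjusted p under 0.05 there were 192 genes (4.3%). DESeq2, run on the same counts, called 13 (0.291%), 6 higher and 7 lower, and 12 of them are among the genes described below. Limma-voom called 0. All 4 deleted plates lay above all 5 controls in 46 genes (1.03%) and below all of them in 54 (1.21%).

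Ikbkb itself did not separate the groups. Levels are given as CPM, the UMIs of a gene among 1000000 of its plate, scaled by TMM factors. Ikbkb (chromosome 8, 22659212 to 22706589, build GRCm38, minus strand) stood at 127, 245, 270.3 and 293 CPM in deleted plates 1 to 4, at 294 in the Ikbkb_FF plate and at 102, 315, 257 and 209 in Irf1_FF plates 1 to 4. The groups overlapped over most of their range, and the Ikbkb_FF plate lay just above the highest deleted plate and inside the Irf1_FF range. The log2 fold change was -0.01 ± 0.37 (SE; edgeR adjusted p = 0.9997), with experiment as a term it was -0.33, and with 6-week and 8-week mice alone it was 0.35 and -0.65. Because the libraries read only 5′ ends, an exon deleted further along need not lower this count, and the level does not check the labels.

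Among genes of the NF-κB pathway, Nfkbia had the smallest p. Nfkbia, on chromosome 12 (55489410 to 55492647, GRCm38), encodes IκBα. The 150 bases just before its start on the minus strand, chr12:55492648-55492797, are shown because Nfkbia is the textbook feedback target of NF-κB; capitals mark a match to a loose form of the κB site, GGG, any 5 bases, then CC, searched on both strands (sequence from RefSeq, GRCm38.p6).
Nfkbia: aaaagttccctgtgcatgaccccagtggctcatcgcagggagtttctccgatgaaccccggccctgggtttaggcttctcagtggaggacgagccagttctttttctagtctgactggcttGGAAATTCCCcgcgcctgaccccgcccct
The match is a description, not a bound site. In the 250 bases before the start, 45.8% of all 32851 promoters in the table and 59.8% of the 3207 promoters of tested genes held at least 1 match. Of the tested NF-κB target genes with an entry, 12 of 20 held one, close to the share of all tested genes.

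Nfkbia stood at 730.5, 589.7, 698 and 805 CPM in the deleted plates, at 703 in the Ikbkb_FF plate and at 1122, 1431, 1452 and 1604 in the Irf1_FF plates. Every M3 plate was above every M2 plate, and the Ikbkb_FF control lay inside the deleted range. Against all controls the log2 fold change was -0.84 ± 0.23 (edgeR adjusted p = 0.987). With experiment as a term it was 0.01 ± 0.26 (edgeR adjusted p = 0.999), and with 6-week mice alone -0.90 ± 0.20 (edgeR adjusted p = 0.930). Nfkbia levels thus separated the experiments without overlap and did not separate deleted plates from all controls.

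The same order of Nfkbia levels appeared among mature dendritic-like cells, a state named by Ccr7, Ccl22 and other genes of migrating dendritic cells. There Nfkbia stood at 1110 and 1943 CPM in deleted plates 3 and 4, at 1583 in the Ikbkb_FF plate and at 2741, 2588 and 3622 in Irf1_FF plates 2, 3 and 4; the other plates had under 5 such cells. The Ikbkb_FF plate, with 5 mature cells, again lay inside the deleted range. Among immature cDC1-like cells the groups overlapped, with a log2 fold change of -0.17 ± 0.28 (SE). Tnfaip3 and Tnfsf9, NF-κB feedback or target genes, were lower in mature cells of deleted plates 3 and 4 than of Irf1_FF plates. They were named after their values were seen, and neither passed (edgeR adjusted p = 0.9998 for each). Tnfaip3 was at 39.0 and 3.18 CPM in deleted plates 3 and 4, 279 in the Ikbkb_FF plate and 155 to 600 in Irf1_FF plates. Tnfsf9 had the order of Nfkbia, at 233 and 266, 260, and 473 to 1112 CPM. Bcl2a1d, a survival gene also named after its values were seen, went the other way. It stood at 1534 and 1395 CPM, 820, and 689 to 1105 in the same order. The listed NF-κB target and feedback genes had a median log2 fold change of -0.14 in mature cells, beside 0.03 for all tested genes. The share of mature cells ran from 7.69 to 33.3% in deleted plates, was 14.7% in the Ikbkb_FF plate and ran from 4.65 to 40.0% in Irf1_FF plates.

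The rest of the pathway gave 0 calls. Of 20 listed subunits, inhibitors and kinases, 15 were tested, 7 with a log2 fold change above 0 and 8 below, with a median of -0.01 beside -0.02 for all tested genes. By transcript the subunits Rela, Rel, Relb, Nfkb1 and Nfkb2 overlapped between groups. Nfkbib, which encodes the inhibitor IκBβ, stood at 254, 336, 441 and 316 CPM in deleted plates, 153 in the Ikbkb_FF plate and 201 to 624 in Irf1_FF plates, so that the Ikbkb_FF plate lay below every other plate. Of 38 listed NF-κB target and feedback genes 27 were tested, 12 above 0 and 15 below, with a median of -0.21, and with experiment as a term that median was 0.21. The summed level of the 38 genes was 5559, 4353, 7174 and 7238 CPM in deleted plates, 5303 in the Ikbkb_FF plate and 5542, 10184, 8778 and 8209 in Irf1_FF plates. The Ikbkb_FF plate was inside the deleted range of this sum, and Irf1_FF plate 1, the one richest in fibroblast-like cells, stood lowest among the M3 plates.

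Nfkbia was 1 of 3 target genes at an unadjusted p under 0.05, and the other two, Sod2 and Tnfsf9, were named after their values were seen. Sod2, the mitochondrial superoxide dismutase gene, stood at 146, 176, 169 and 145 CPM in deleted plates, 177 in the Ikbkb_FF plate and 223 to 365 in Irf1_FF plates. The Ikbkb_FF plate lay just above the deleted plates and below all Irf1_FF plates. Tnfsf9, which encodes the costimulatory ligand 4-1BBL, stood at 36.5, 63.4, 81.1 and 71.3 CPM in deleted plates, 64.0 in the Ikbkb_FF plate and 79.2 to 408 in Irf1_FF plates, where it overlapped the deleted plates. With experiment as a term the log2 fold changes were -0.16 for Sod2 and -0.02 for Tnfsf9, against -0.85 and -1.53 over all controls. Ccl5, a chemokine that attracts T cells and NK cells, overlapped widely, at 157 to 719.7 CPM in deleted plates, 542 in the Ikbkb_FF plate and 77.2 to 1489 in Irf1_FF plates.

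**Figure D1:**
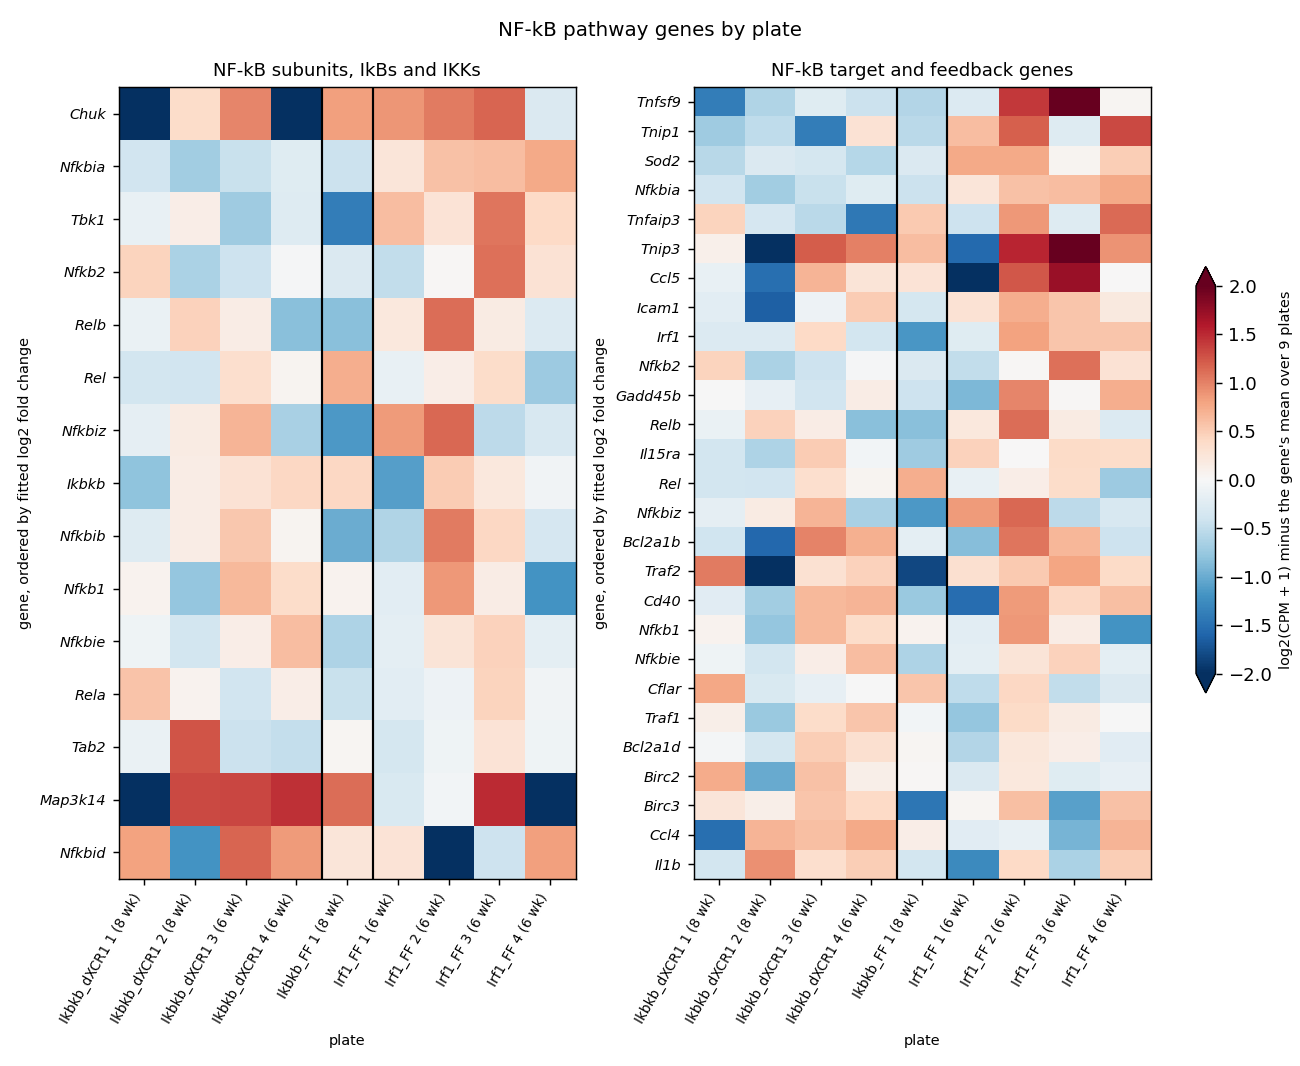
Levels of the 15 tested NF-κB subunit and regulator genes (left) and the 27 tested target and feedback genes (right). Columns are plates with mouse age in weeks, rows are genes in order of the fitted log2 fold change, and colour is log2(CPM + 1) minus the gene's mean over the 9 plates, limited at the ends of the scale. Black lines set off the Ikbkb_FF plate, whose Nfkbia square has the colour of the deleted plates, while the 4 Irf1_FF plates are above the mean.

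How often the Ikbkb_FF plate sided with the deleted plates was counted over all genes. All 4 deleted plates lay above all 4 Irf1_FF plates in 96 genes (2.15%) and below all of them in 114 (2.55%). In these 210 genes together the Ikbkb_FF plate was inside the deleted range in 91, inside the Irf1_FF range in 61 and in neither range in 58. The deleted and Irf1_FF ranges cannot overlap in these genes. Over all 4465 tested genes, where they can, the counts were 2871, 2548 and, for neither range, 904. By distance to the group medians on the log2(CPM + 1) scale the Ikbkb_FF plate was nearer the deleted plates in 124 of the 210 (59.0%). Over all 4465 tested genes it was nearer them in 2279 (51.0%). In 46 of the 96 genes and 54 of the 114 the deleted plates also lay beyond the Ikbkb_FF plate. In the rest the M2 control fell among or past the deleted plates.

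**Figure D2:**
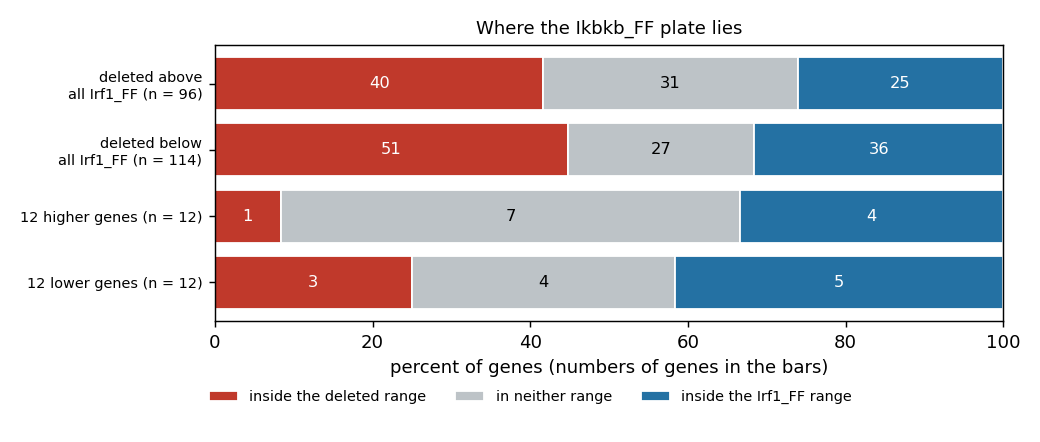
Place of the Ikbkb_FF plate in the 96 and 114 genes whose deleted plates lay above or below all 4 Irf1_FF plates, and in the 12 higher and 12 lower genes with the smallest p. Bars give the percent of genes and the numbers in them the count: the plate was inside the deleted range in 40, 51, 1 and 3 genes and inside the Irf1_FF range in 25, 36, 4 and 5. The 96 and 114 genes were chosen without the Ikbkb_FF plate. The genes with the smallest p were chosen with it among the controls, so its place in them reflects the choice and the sets cannot be compared.

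The 12 genes higher in deleted plates with the smallest p were led by Aif1. They were taken by p from this same contrast, with the Ikbkb_FF plate among the controls. Their differences and the place of that plate therefore describe the choice, and none passed (edgeR adjusted p = 0.987 for each). Aif1 encodes an actin-binding protein of myeloid cells (chromosome 17, 35170991 to 35176068). It stood at 1424, 2270.4, 1767 and 1629 CPM in deleted plates, 1219 in the Ikbkb_FF plate and 816, 1098, 730.3 and 1069 in Irf1_FF plates, a log2 fold change of 0.85 ± 0.19. All deleted plates were above all controls, and the Ikbkb_FF plate was the highest control. In mature cells Aif1 stood at 1166 and 1532 CPM in deleted plates 3 and 4. The Ikbkb_FF plate was at 243 and Irf1_FF plates 2 to 4 were at 408, 550.1 and 693. Both deleted plates were above these controls, but so few plates are apart by order more readily than 4 against 5. Aif1 did not pass there (edgeR adjusted p = 0.9998). In immature cells the groups overlapped, with Aif1 at 1555, 2446, 1480 and 1246 CPM in deleted plates, 1348 in the Ikbkb_FF plate and 511 to 1789 in Irf1_FF plates (log2 fold change 0.41 ± 0.33, SE).

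Klrk1, which encodes the activating receptor NKG2D (chromosome 6, 129610323 to 129623864), stood at 548, 842, 1019 and 976 CPM in deleted plates, 536 in the Ikbkb_FF plate and 234, 488, 452 and 431 in Irf1_FF plates (log2 fold change 0.98 ± 0.26). The lowest deleted plate was barely above the Ikbkb_FF plate. Klrk1 had UMIs in 65.4% of deleted and 43.2% of control cells. Summed NK cell markers, which do not include it, were at 0 to 102 CPM in deleted plates and 0 to 488 in control plates, and T cell markers at 0.278 to 314 and 0 to 654. With dendritic-like clusters alone (immature, mature, proliferating and interferon-stimulated) the log2 fold change of Klrk1 was 0.83.

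Taldo1, Ndufa4, Cox6a1, Acat1 and Acadm were also among the 12. Taldo1, transaldolase of the pentose phosphate pathway, stood at 1171, 1617, 1341 and 1374 CPM in deleted plates, 1033 in the Ikbkb_FF plate and 741 to 1066 in Irf1_FF plates. Ndufa4 and Cox6a1, both linked to respiratory complex IV, were at 478 to 812 and 554 to 783 CPM in deleted plates, at 468 and 441 in the Ikbkb_FF plate, and at 251 to 427 and 349.8 to 539 in Irf1_FF plates. In these 3 genes the deleted plates lay above all controls, and for Ndufa4 the lowest deleted plate was barely above the Ikbkb_FF plate. Acat1, a mitochondrial acetyl-CoA acetyltransferase, was at 211 to 407 CPM in deleted plates, 151 in the Ikbkb_FF plate and 74.3 to 211 in Irf1_FF plates. Acadm, the medium-chain acyl-CoA dehydrogenase, was at 153, 112, 229 and 194 CPM in deleted plates, 76.2 in the Ikbkb_FF plate and 43.1 to 108 in Irf1_FF plates.

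The other higher genes split by where the Ikbkb_FF plate lay. Fam96a, an iron-sulphur cluster assembly gene, had the narrowest deleted range, at 555, 575, 559 and 546 CPM, with the Ikbkb_FF plate at 442 and Irf1_FF plates at 246 to 344. Rab8a, a GTPase of membrane traffic, was at 666 to 762 CPM in deleted plates, 616 in the Ikbkb_FF plate and 359.8 to 451 in Irf1_FF plates. For both genes the Ikbkb_FF plate was nearer the deleted plates, and with experiment as a term the log2 fold changes went from 0.75 to 0.34 and from 0.62 to 0.20. Zfp995, a zinc finger gene with close relatives among which reads could be split, was at 23.4 to 137 CPM in deleted plates, 5.85 in the Ikbkb_FF plate and 9.16 to 17.5 in Irf1_FF plates, so the Ikbkb_FF plate was the lowest of all. S100a11, a calcium-binding protein gene, was at 411 CPM in deleted plate 1, inside the Irf1_FF range of 391 to 459, and at 682 to 929 in the other deleted plates; the Ikbkb_FF plate was at 387. Ifitm1, an interferon-induced membrane protein gene with close paralogs, was at 443 and 607 CPM in the 8-week and 299 and 144 in the 6-week deleted plates, 156 in the Ikbkb_FF plate and 25.4 to 154 in Irf1_FF plates, so deleted plate 4 overlapped the controls.

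Spp1 led the 12 genes lower in deleted plates. Spp1 encodes the secreted protein osteopontin (chromosome 5, 104435118 to 104441050). It stood at 65.9, 33.9, 74.3 and 48.1 CPM in deleted plates, 114 in the Ikbkb_FF plate and 288, 236, 145 and 242 in Irf1_FF plates, or -1.88 ± 0.41 (SE) as log2 fold change, with an edgeR adjusted p of 0.987. All deleted plates were below all controls, with the Ikbkb_FF plate between them and the Irf1_FF plates. Spp1 had UMIs in 6.77% of deleted and 17.6% of control cells. The detection filter took all cells together, so these shares are no separate check of the difference. Among deleted cells alone Spp1 was under the minimum of that filter, and Spp1 was tested only because of the control cells. With experiment as a term its log2 fold change was -1.04, and with dendritic-like clusters alone -1.11.

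Over all cells Fn1 and App were highest in Irf1_FF plates 1 and 4, the plates rich in fibroblast-like cells. Fn1, the fibronectin gene (chromosome 1), stood at 0, 2.78, 0.155 and 0.128 CPM in deleted plates, at 0.167 in the Ikbkb_FF plate and at 512, 82.2, 52.6 and 333 in Irf1_FF plates. No fold is given against levels so close to 0. The Ikbkb_FF plate was inside the deleted range, and the highest levels were in Irf1_FF plates 1 and 4. The 12 fibroblast and endothelial markers, which do not include Fn1, summed to 67.6 to 913 CPM in deleted plates, 100.1 in the Ikbkb_FF plate and 9131, 172, 1233 and 5878 in Irf1_FF plates; their part in the Fn1 result was not tested. App, the amyloid precursor gene, stood at 60.8, 47.8, 39.3 and 32.3 CPM in deleted plates, 81.5 in the Ikbkb_FF plate and 283, 75.4, 159 and 209 in Irf1_FF plates, and its log2 fold change went from -1.84 to -0.97 with dendritic-like clusters alone. In mature cells App stood at 3.49 and 4.45 CPM in deleted plates 3 and 4. The Ikbkb_FF plate, with 5 mature cells, was at 249, and Irf1_FF plates 2 to 4 were at 80.6, 172 and 118. In immature cells App was at 0 to 73.2 CPM in deleted plates and 111 in the Ikbkb_FF plate. Irf1_FF plates, at 0 to 70.0, overlapped the deleted plates there. Without Irf1_FF plate 1 the edgeR count stayed at 0 calls.

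For 5 of the 12 lower genes the Ikbkb_FF plate lay among the Irf1_FF plates. App is one of them. Kctd10, an adaptor of a ubiquitin ligase, was at 55.8, 50.9, 47.7 and 93.6 CPM in deleted plates, 155 in the Ikbkb_FF plate and 116 to 230.4 in Irf1_FF plates. Hspbp1, which encodes a cochaperone of HSP70, was at 30.8, 30.9, 32.5 and 12.8 CPM in deleted plates, 85.5 in the Ikbkb_FF plate and 81.2 to 134 in Irf1_FF plates. Bnip3l, a mitophagy receptor, was at 20.4 to 61.1 CPM in deleted plates, 129.8 in the Ikbkb_FF plate and 85 to 135 in Irf1_FF plates. In each of these genes both kinds of control lay above the deleted plates. With experiment as a term the log2 fold changes of Kctd10, Hspbp1 and Bnip3l were -1.32, -1.68 and -1.88. That of Zfp995 was 3.79. This fit sets the deleted plates against the Ikbkb_FF plate, which was among the controls when these genes were chosen by p. Its values are therefore no second check of the choice.

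In the remaining lower genes the Ikbkb_FF plate fell short of the Irf1_FF plates. Smarca4, the ATPase of the SWI/SNF remodelling complex, was at 22.9 to 48.1 CPM in deleted plates, 84.5 in the Ikbkb_FF plate and 86.9 to 165 in Irf1_FF plates. Akt1, a kinase of growth factor signalling, was at 32.5 to 59.3, 95.6 and 95.7 to 158 CPM in the same order, and Tipin, a replication fork gene, at 30.3 to 90.6, 132 and 149 to 218. In these 3 genes the Ikbkb_FF plate was just under the lowest Irf1_FF plate and above all deleted plates. Serpina3g, a protease inhibitor gene of a large family whose copies can share reads, was at 60.9 to 217 CPM in deleted plates, 140.0 in the Ikbkb_FF plate and 226 to 527 in Irf1_FF plates, so that here the M2 control was inside the deleted range.

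**Figure D3:**
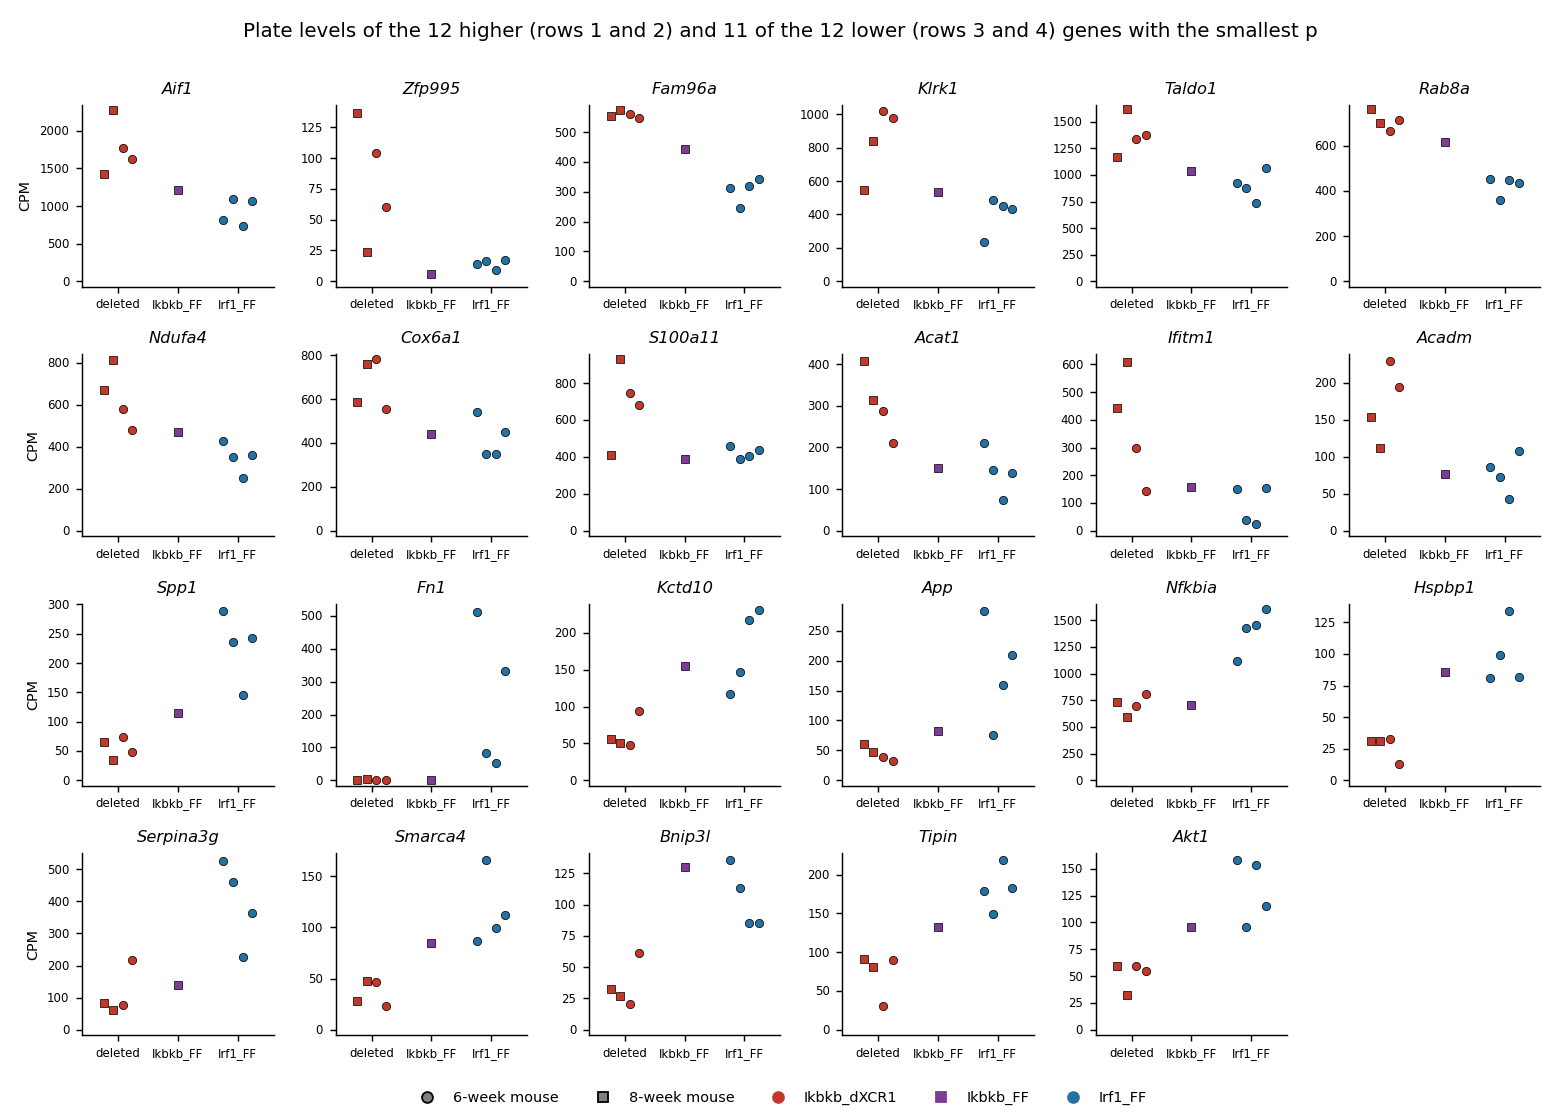
Plate levels (CPM, linear axes from 0) of the 12 higher and 11 of the 12 lower genes with the smallest p, with 1 point per plate, circles for 6-week and squares for 8-week mice. The Ikbkb_FF plate (purple) lies inside the deleted range for Ifitm1, Fn1, Nfkbia and Serpina3g, and 0 of the 24 genes passed the adjusted edgeR test.

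The deleted plates of 6-week and 8-week mice were compared by their order alone. Both 6-week deleted plates were above both 8-week ones in 948 genes (21.2%), and the 8-week plates were above in 705 (15.8%). With 2 plates an age no test was made, and 2 against 2 plates are apart by order far more readily than 4 against 5. Type I interferon-stimulated genes, which cells switch on after sensing type I interferon, had the highest such share among lists with 9 or more tested genes: of 44 tested members 37 were higher in both 6-week deleted plates and 0 in both 8-week ones. Their summed level was 10436 and 11041 CPM in the 8-week deleted plates, 22489 and 26501 in the 6-week deleted plates, 12243 in the 8-week Ikbkb_FF plate and 14017, 15553, 12666 and 15260 in the 6-week Irf1_FF plates. The 8-week deleted plates were thus the lowest of all plates and the 6-week ones the highest. The Ikbkb_FF plate lay inside the deleted range in 39 of the 44 genes, beside 2871 of all 4465 tested genes.

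The 6-week deleted plates were also compared with the 6-week controls. Both 6-week deleted plates were above all 4 Irf1_FF plates in 29 of the 44 genes, where 387 of all tested genes (8.67%) had that order, and below them in 0, where 334 (7.48%) did. In that comparison genotype and experiment cannot be told apart. The list's median log2 fold change was 0.40 over all plates, with 35 of the 44 members above 0, beside 2159 of all 4465 tested genes. It was 0.85 in 6-week mice and -0.32 in 8-week mice. The medians of all genes lay between -0.02 and 0. No member passed in any of these fits. Irf7, the interferon-induced transcription factor that amplifies the response, stood at 498, 403, 1226 and 1775 CPM in deleted plates, 423 in the Ikbkb_FF plate and 786, 802, 585 and 918 in Irf1_FF plates. Usp18 and Isg20, named after their values were seen, were at 313, 398, 737 and 1049 CPM and at 249, 97.6, 782 and 878 in deleted plates. Their Ikbkb_FF levels were 328 and 271, and their Irf1_FF ranges 258 to 409 and 174 to 235. Ly6e and Ifi205, the members with the most UMIs, overlapped, at 1090.1 to 2249 and 1353 to 2040.0 CPM in deleted plates, 1822 and 1662 in the Ikbkb_FF plate, and 1215 to 2321 and 982 to 1771 in Irf1_FF plates.

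Shares of 2 cell states are given beside these levels, and their part in the result was not tested. At Leiden resolution 1 the interferon-stimulated cluster held 0 of 18 cells in deleted plate 1, which allows a share of up to 16.7%, 3.85% in deleted plate 2, 13.2% in plate 3 (95% interval 4.41 to 28.1%) and 21.6% in plate 4 (11.3 to 35.3%), 2.94% in the Ikbkb_FF plate and 1.96 to 4.65% in Irf1_FF plates. At resolution 0.5 it held 11.1, 3.85, 10.5 and 21.6% in deleted plates, 8.82% in the Ikbkb_FF plate and 3.23 to 11.6% in Irf1_FF plates, so that deleted plate 1, from an 8-week mouse, was no lower than deleted plate 3. Macrophage-like cells were 0, 0, 10.5 and 19.6% of deleted cells, 0% in the Ikbkb_FF plate and 2.33, 25.0, 6.45 and 5.88% in Irf1_FF plates. The dendritic-like clusters still hold the interferon-stimulated cluster, so its uneven share stays in a fit restricted to them. In that fit the interferon list had a median of 0.69. Restricted to mature cells, where only 6-week deleted plates had enough cells, the median was 1.56, and restricted to immature cells 0.01. Within mature cells Irf7 stood at 944 and 1843 CPM in deleted plates 3 and 4, 461 in the Ikbkb_FF plate and 384, 646 and 337 in Irf1_FF plates 2 to 4. Within immature cells Irf7 overlapped, at 152 to 1009 CPM in deleted plates, 173 in the Ikbkb_FF plate and 255 to 1129 in Irf1_FF plates.

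No share of a cell state passed its test between deleted and control plates. Immature cDC1-like cells made up 44.4 and 65.4% in the 8-week deleted plates, 15.8 and 13.7% in the 6-week deleted plates, 55.9% in the 8-week Ikbkb_FF plate (95% interval 37.9 to 72.8%) and 30.2, 15.0, 29.0 and 33.3% in Irf1_FF plates. The 8-week plates had the highest shares of the 9 at Leiden resolutions 1 and 1.5. At 0.5 deleted plate 1 (27.8%) and the Ikbkb_FF plate (26.5%) were below Irf1_FF plates 1 (30.2%) and 4 (29.4%). Over all plates the immature share was 34.8 ± 24.7% (SD, n = 4) against 32.7 ± 14.8% (n = 5; exact permutation p = 0.905), and the mature share 23 ± 11.2% against 24.5 ± 14.7% (exact permutation p = 0.873). The smallest p of the 9 states was that of cluster 4, an unnamed cluster with the lowest median UMIs per cell of the clusters, at 14.5 ± 8.76% against 4.43 ± 3.15% (exact permutation p = 0.0635, adjusted p = 0.571; the smallest p these plates allow is 0.0159). These cells were sorted, so a gate can set such shares.

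**Figure D4:**
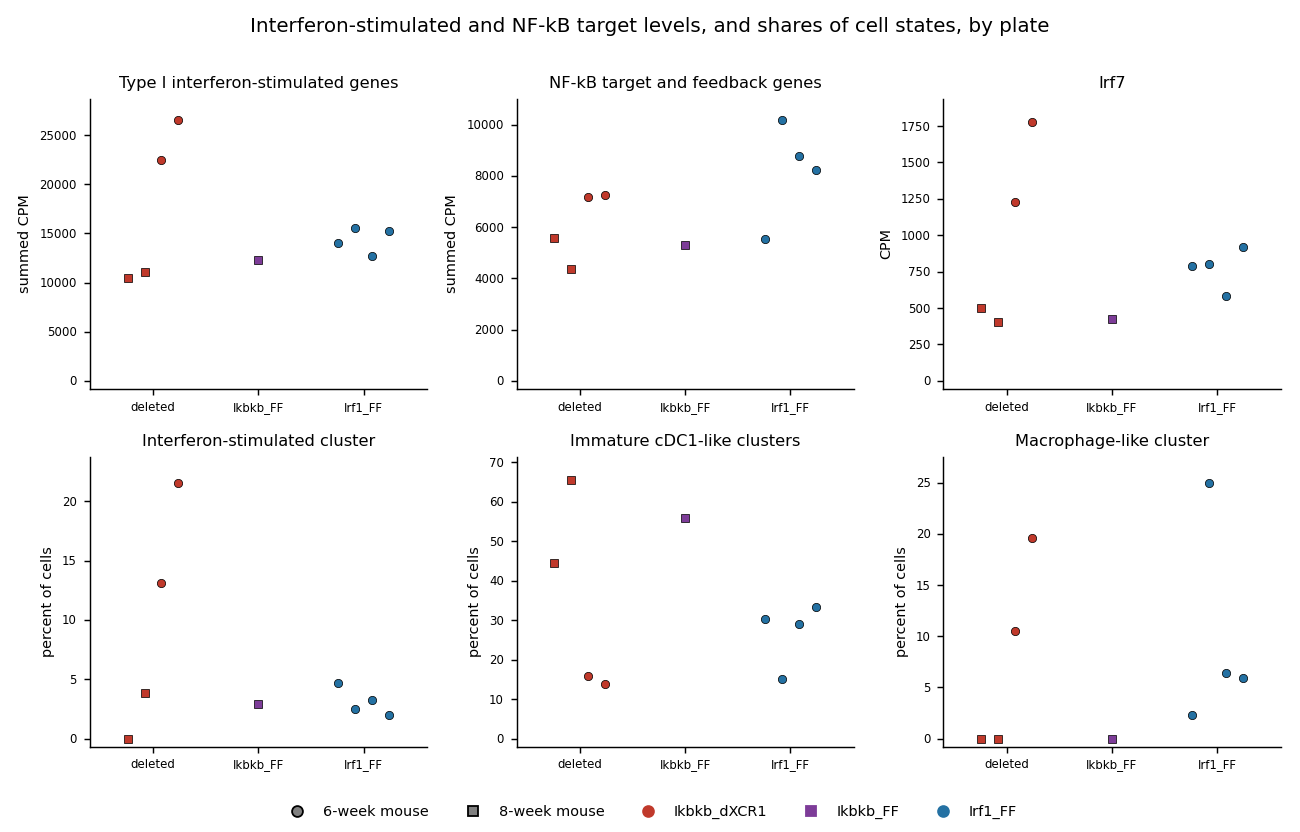
Summed levels of the interferon-stimulated and NF-κB target lists, Irf7, and shares of 3 cell states, with 1 point per plate, circles for 6-week and squares for 8-week mice. The 6-week deleted plates have the highest interferon-stimulated sums (22489 and 26501 CPM), and at Leiden resolution 1 the 8-week plates of both genotypes have the highest immature shares (44.4, 65.4 and 55.9%).

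Maturation and antigen presentation genes gave 0 calls. Of 33 tested maturation and migration genes 13 were above 0 and 20 below, with a median of -0.16, and 0.43 with experiment as a term. Ccr7, the receptor that guides dendritic cells to lymph nodes, stood at 512, 289, 842 and 1044 CPM in deleted plates, 343 in the Ikbkb_FF plate and 184 to 1049 in Irf1_FF plates. Cd83, a maturation marker, stood at 1036 to 1455 CPM, 1614 and 864 to 2349.6 in the same order. Among costimulatory and checkpoint ligands (13 tested, median -0.03) Cd86 was at 383 to 1060.1 CPM in deleted plates, 488 in the Ikbkb_FF plate and 309 to 768 in Irf1_FF plates. The 9 chemokines had a median of -0.88 with 7 below 0, and 0.07 with experiment as a term; Ccl22, a ligand of CCR4, was at 330.5 to 525, 320.1 and 123 to 928 CPM. Of 7 cytokine genes 4 were below 0. Il12b, the p40 subunit of IL-12, was at 258 to 654 CPM in deleted plates, 391 in the Ikbkb_FF plate and 30.5 to 916 in Irf1_FF plates, and Il1b at 173 to 422, 172 and 92.3 to 315.

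Most tested MHC class II and cDC1 identity genes had a fold change above 0 over all controls, with 0 calls. Among all 4465 tested genes 2159 were above 0. Of 12 tested class II genes 11 were above 0 (median 0.24), and with experiment as a term the median was -0.07. Cd74, the invariant chain, was at 3369 to 5259.8 CPM in deleted plates, 4485 in the Ikbkb_FF plate and 2916 to 4987 in Irf1_FF plates, and H2-Ab1 at 3405 to 5851, 4387 and 2671 to 4101. Of 23 cDC1 identity genes 19 were above 0 (median 0.32). The Ikbkb_FF plate was inside the deleted range in 18 of the 23, beside 2871 of all 4465 tested genes. The medians of the list were -0.06 with experiment as a term and 0.07 in dendritic-like clusters. Id2, a transcription factor gene of the cDC1 lineage, was at 1636 to 2551 CPM in deleted plates, 2306 in the Ikbkb_FF plate and 1426 to 2215 in Irf1_FF plates. MHC class I genes (23 tested, 10 above 0, median -0.07) held B2m at 3060.4 to 4109 CPM, 3370.0 and 3492 to 5558, and H2-D1, which has close copies, at 2135 to 2684, 2426 and 2427 to 3504. Of the 40 tested interferon-γ response genes, IRF1 targets included, 15 were above 0 (median -0.17); Psme2 and Psmb8, proteasome genes of antigen processing, were at 1941 to 2196 and 1586 to 2055 CPM in deleted plates, 1644 and 1609 in the Ikbkb_FF plate, and 1192 to 2143 and 1442 to 1884 in Irf1_FF plates.

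Immediate-early, heat-shock, glycolysis and S phase genes mostly had fold changes below 0. Among all 4465 tested genes 2306 were below 0. Of 18 immediate-early and heat-shock genes 16 were below 0 (median -0.54), and the median was -0.46 with experiment as a term and -0.46 in dendritic-like clusters. Hspa8, a constitutive HSP70, was at 1824 to 2389.7 CPM in deleted plates, 2609 in the Ikbkb_FF plate and 1974 to 3258 in Irf1_FF plates, and Fos at 608 to 890.1, 710.1 and 469 to 1046. Of 16 glycolysis and hypoxia genes 13 were below 0 (median -0.43; -0.13 with experiment as a term). Pkm, pyruvate kinase, was at 621 to 971 CPM, 1045 and 859.8 to 1262, and Ldha at 751 to 959.9, 832 and 726 to 926. Of 15 S phase genes 13 were below 0 (median -0.24; -0.86 with experiment as a term). Pcna, the replication clamp, was at 306, 122, 107 and 151 CPM in deleted plates, 313 in the Ikbkb_FF plate and 209 to 338 in Irf1_FF plates, and Rfc2, a clamp loader subunit, at 158 to 377, 366 and 91.8 to 272. No member of these lists passed. Proliferating cells made up 3.85 to 11.1% of deleted plates, 14.7% of the Ikbkb_FF plate and 2.50 to 16.1% of Irf1_FF plates. Their part in the S phase levels was not tested. Of 17 apoptosis and survival genes, 9 were above 0; Pmaip1, the BH3-only protein NOXA, was at 173 to 285 CPM in deleted plates, 385 in the Ikbkb_FF plate and 198 to 493 in Irf1_FF plates, and Bcl2a1d, which has near-identical copies, at 315 to 570.3, 414 and 269 to 475.

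Markers of other cell types overlapped as well. Macrophage and monocyte markers (9 tested of 15) summed to 1042 to 3797 CPM in deleted plates, 1552 in the Ikbkb_FF plate and 1204 to 4878 in Irf1_FF plates, with C1qb at 0, 58.7, 327 and 548 CPM, 27.9, and 101 to 766. Of the cDC2 markers 2 were tested: Tmem176a and Tmem176b, at 41.2 to 146 and 32.5 to 296 CPM in deleted plates, 22.1 and 83.7 in the Ikbkb_FF plate, and 123 to 249.7 and 176 to 332 in Irf1_FF plates. For both genes the Ikbkb_FF plate was below every Irf1_FF plate. Col1a1, a collagen gene, was at 1.01 to 152 CPM in deleted plates, 0.668 in the Ikbkb_FF plate and 1543, 58.9, 198 and 1052 in Irf1_FF plates; the median log2 fold change of the 6 fibroblast genes tested was -3.37 over all cells and 1.69 in dendritic-like clusters. Melanoma markers summed to 0 to 11.2 CPM in deleted plates and 0 to 31.1 in control plates, from the 4 of 8 listed markers that the table holds; whether YUMM1.7 cells express these was not tested.

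**Figure D5:**
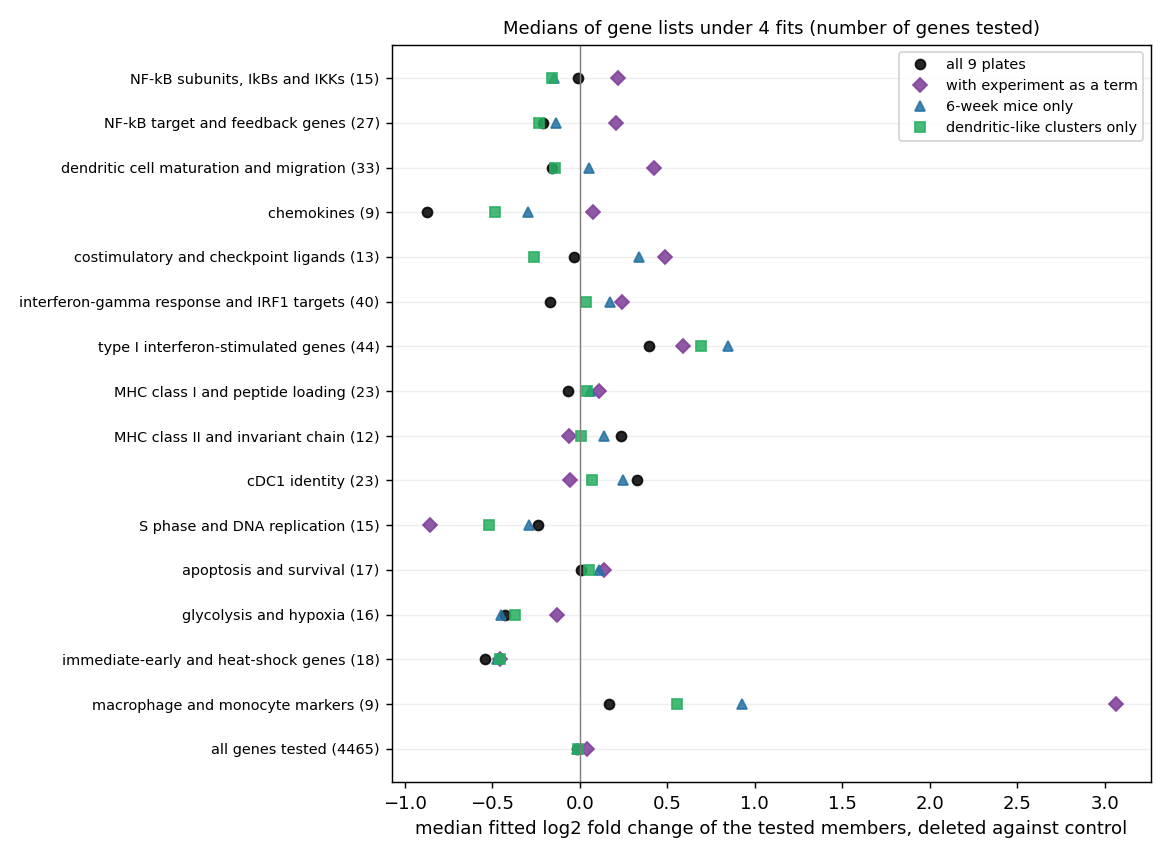
Median fitted log2 fold change of the tested members of each list with 9 or more tested genes, deleted against control, in 4 fits; the number tested is in parentheses. The NF-κB target median is -0.21 over 9 plates and 0.21 with experiment as a term, and the interferon-stimulated median is above 0 in all 4 fits (0.40 to 0.85). The fit of dendritic-like clusters includes the interferon-stimulated cluster.

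Surface protein recorded during the sort covered deleted plates 1 to 3 and the 4 Irf1_FF plates, with values for 39 of the 51 cells of Irf1_FF plate 4. Median XCR1 on the arcsinh scale was 8.90, 9.38 and 7.87 in deleted plates and 7.71, 7.95, 8.91 and 9.27 in Irf1_FF plates, and the groups overlapped (exact permutation p = 0.629). MHC class II was 9.37 ± 0.35 (SD, n = 3) against 8.81 ± 0.80 (n = 4; exact permutation p = 0.343) and CD11c 9.57 ± 0.57 against 8.91 ± 0.42 (exact permutation p = 0.171, adjusted p = 0.514). The smallest p that 3 against 4 plates allow is 0.0571, so no staining could pass, and the Ikbkb_FF plate has none.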

How the data were processed

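The deposited values are whole-number UMI counts for 21205 genes in 555 cells. The submitters' processing notes name build GRCm38 and the tools HTSeq 0.9.1, STAR 2.5.3a and bcl2fastq, and the sources used here do not state earlier filters. The authors' deposited cell annotation gives age, experiment, arcsinh stainings and, as a fraction, each cell's mitochondrial and spike-in UMIs, printed here as percent. The highest count was 1024, all UMIs of 5 bases, so abundant transcripts are understated. The median non-zero count of a gene in a cell was 64. Whether each counted UMI stands for 1 transcript was not tested, so counts should not be read as transcript numbers. No cell was removed. Wells took single sorted cells and 0 were marked as holding several, so doublets were not called.

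Counts were summed per plate, the replicate. Genes found in 10% of cells were scaled by TMM and tested with edgeR 4.0.16 (quasi-likelihood, two-sided) in R 4.3.3; the tests were checked on simulated data. DESeq2 1.42.0 and limma 3.58.1 were alternatives. Cells were clustered with scanpy 1.11.5 (2000 variable genes, 15 components, Leiden resolution 1). Plate values were compared with exact permutation tests, adjusted within each family of measures. Lists were counted, not tested.

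Genes named were Ikbkb, the 12 higher and 12 lower with the smallest p (mean of at least 10 CPM in one group), and the 2 members of each list with the highest mean; a few others are said in the text to have been chosen after their values were seen, and 1 of the 12 lower is not reported here by name. Members and lists were chosen with earlier results of these data known. Replicate numbers follow accession order.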

Additional observations from a re-analysis of the deposited data

Results flagged for a closer look

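In 85 groups of 4 or 5 plates checked, 11 had a plate far from the others by Dixon's criterion. Its chance rate of about 1 in 20 groups holds for normally distributed values. Shares at 0 in most plates and genes chosen by p need not keep that rate, so 11 of 85 cannot be set against it. Among deleted plates, plate 4 stood apart for Serpina3g (217 CPM) and Hspbp1 (12.8 CPM), plate 3 for Tipin (30.3 CPM), and plate 2 for Akt1 (32.5 CPM) and Fn1 (2.78 CPM). Of the shares, deleted plate 1 stood apart for T cell-like cells (11.1%), deleted plate 3 for fibroblast- or endothelial-like cells (2.63%) and deleted plate 4 for the unnamed cluster 9 (1.96%); in each the other 3 deleted plates had 0. Among control plates, Irf1_FF plate 2 stood apart for macrophage-like cells (25.0%) and Irf1_FF plate 1 for side scatter (12.8). Irf1_FF plate 4 stood apart for the median CD64 staining (-3.87 on the arcsinh scale). Deleted plate 1 was as low (-3.755), but with 3 stained plates the deleted group was too small for the check. The other stained plates were at 5.59 to 7.36.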

How the results depend on the processing

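The number of genes called was 0 in every edgeR and limma fit, with each plate left out (0 to 0), with 6-week mice alone and with experiment or age as a term, and 13 with DESeq2. The lowest adjusted p of any edgeR or limma fit was 0.0811, with 6-week mice. DESeq2 moved 12 of the 24 genes past the threshold. The Ikbkb log2 fold change changed sign with limma-voom (0.23), filterByExpr (0.0382), no filter (0.0155), age as a term (0.00853), 6-week mice (0.35), Irf1_FF plates as the only controls (0.0835), cells with at least 500 genes (0.10) and dendritic-like clusters (0.0214), and ran from -0.20 to 0.20 with a plate left out; the cause was not tested. The alternatives added after seeing the data were immature cells (0.57), mature cells (0.31) and 8-week mice (-0.65). The Ikbkb value was -0.33 with experiment as a term, and the last 2 values rest on the Ikbkb_FF plate as the sole control. Of the 24 genes, Nfkbia (0.00626) changed sign with experiment as a term, and Ndufa4 (-0.53) and Akt1 (1.11) among mature cells; the cause was not tested. The fitted Fn1 values, 1.93 with experiment as a term and 2.89 with 8-week mice, set plates at 0 to 2.78 CPM against 0.167 CPM and give no direction. No paired analysis was possible because the labels give the plates no replicate numbers. With 18 to 51 cells a plate, 1 Ikbkb_FF plate and no Irf1_FF plate in M2, genotype and experiment cannot be told apart beyond that plate, and p-values measure the spread between these plates. Of the shares, cluster 4 without deleted plate 4 had an exact permutation p under 0.05 before adjustment, as did proliferating cells at Leiden resolution 0.5.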

Other observations

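Of the list members at an unadjusted p under 0.05 not yet described, 2 were higher in most deleted plates. Havcr2, which encodes the checkpoint receptor TIM-3, stood at 244, 276, 269 and 322 CPM in deleted plates, 172 in the Ikbkb_FF plate and 95.3 to 222 in Irf1_FF plates. Laptm4b stood at 304, 261, 323 and 353 CPM, 124 and 150.4 to 280.1, so deleted plate 2, at 261, overlapped the Irf1_FF plates. Xcr1, the chemokine receptor that marks cDC1, was highest in the Ikbkb_FF plate, at 735 CPM, against 77.8 to 396 in deleted and 206 to 559 in Irf1_FF plates. These genes were chosen after their values were seen, and none passed the adjusted edgeR test.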
